A study of Mus musculus with 24 samples.

Results

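The 10 genes described here belong to the insulin-like growth factor (IGF) axis: the ligand Igf1, the receptors Ghr, Igf1r and Igf2r, and the binding proteins Igfbp2, Igfbp3, Igfbp4, Igfbp5, Igfbp6 and Igfbp7. They were chosen by name, by matching the Ensembl IDs of the count table to gene symbols, and are 10 of the 37991 genes in the table. All 10 passed the filter on low counts, which left 14918 genes for testing. RNA was measured in mammary tissue of 24 female mice, with 3 mice per genotype (PyMT and FVB) at weeks 6, 8, 10 and 12. PyMT mice were F1 females, heterozygous for a transgene in which the long terminal repeat of the mouse mammary tumor virus (MMTV) drives the polyoma virus middle T antigen in mammary epithelium, on the FVB/N strain, and they develop mammary tumors. FVB females without the transgene gave normal glands of the same ages, so every sample shared the FVB background and no other agent was given. Week 6 of PyMT was assigned to hyperplasia, week 8 to adenoma/MIN (mammary intraepithelial neoplasia), week 10 to early carcinoma and week 12 to late carcinoma. PyMT samples were hyperplastic glands or tumors and FVB samples normal mammary glands, and cell type markers, given below, differed between the genotypes, so genotype and tissue make-up cannot be told apart.

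In the IGF axis, growth hormone acts through its receptor, Ghr, to induce IGF1, and IGF1 activates the tyrosine kinase receptor Igf1r, which signals through insulin receptor substrates to PI3K, AKT and MAPK. Igf2r, the cation-independent mannose 6-phosphate receptor, carries lysosomal enzymes and takes up IGF2 for degradation. IGF binding proteins hold IGFs in the extracellular space and can hinder or prolong their action. In the mammary gland Ghr and Igf1 act largely in the stroma, IGF1 drives growth of the ducts, and Igfbp5 is known for its increase during involution.

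The binding protein Igfbp5 and the receptor Igf2r were higher in PyMT samples than in FVB glands, whereas Igf1, Ghr, Igf1r and the binding proteins Igfbp3, Igfbp4, Igfbp6 and Igfbp7 were lower. Over all weeks Igfbp5 was 4.25-fold higher in PyMT (log2 fold change 2.09, SE 0.13, n = 12 per genotype), and Ghr was 7.36-fold lower (log2 fold change -2.88, SE 0.17). In a fit of all 24 samples with week as a factor, 9 of the 10 genes were called, which means a fold change above 2 at an adjusted p below 0.05 (edgeR's quasi-likelihood test, adjusted by Benjamini-Hochberg over all tested genes). Of these, 2 were higher and 7 were lower in PyMT, where 8.51% of all tested genes were called higher and 17.2% lower. The median log2 fold change of the 10 genes was -1.81, beside -0.03 over all tested genes. Igfbp2 was the gene that was not called. In these bulk samples, fewer cells of a type and less RNA per cell cannot be told apart.

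At each week the 3 PyMT samples were also compared with the 3 FVB samples of that week. At week 6, 2 of the 10 genes were called higher and 6 lower (3.58% and 6.46% of all tested genes). At week 8 the counts were again 2 higher and 6 lower (3.57% and 6.37% of all tested genes). At week 10, 1 was called higher and 7 lower (4.83% and 9.09%), and at week 12, 1 was called higher and 6 lower (7.75% and 13.0%). Igf1, Ghr, Igf1r, Igfbp4, Igfbp5 and Igfbp7 were called at every week, in the same direction each time. The count of week 8 fell to 4 without the FVB sample of week 8 replicate 2 and to 5 without the PyMT sample of week 8 replicate 1. In those fits 4.59% and 3.44% of all tested genes were called in either direction. Nothing in the labels or methods ties samples of equal replicate number together, and each sample came from a separate mouse.

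**Figure D1:**
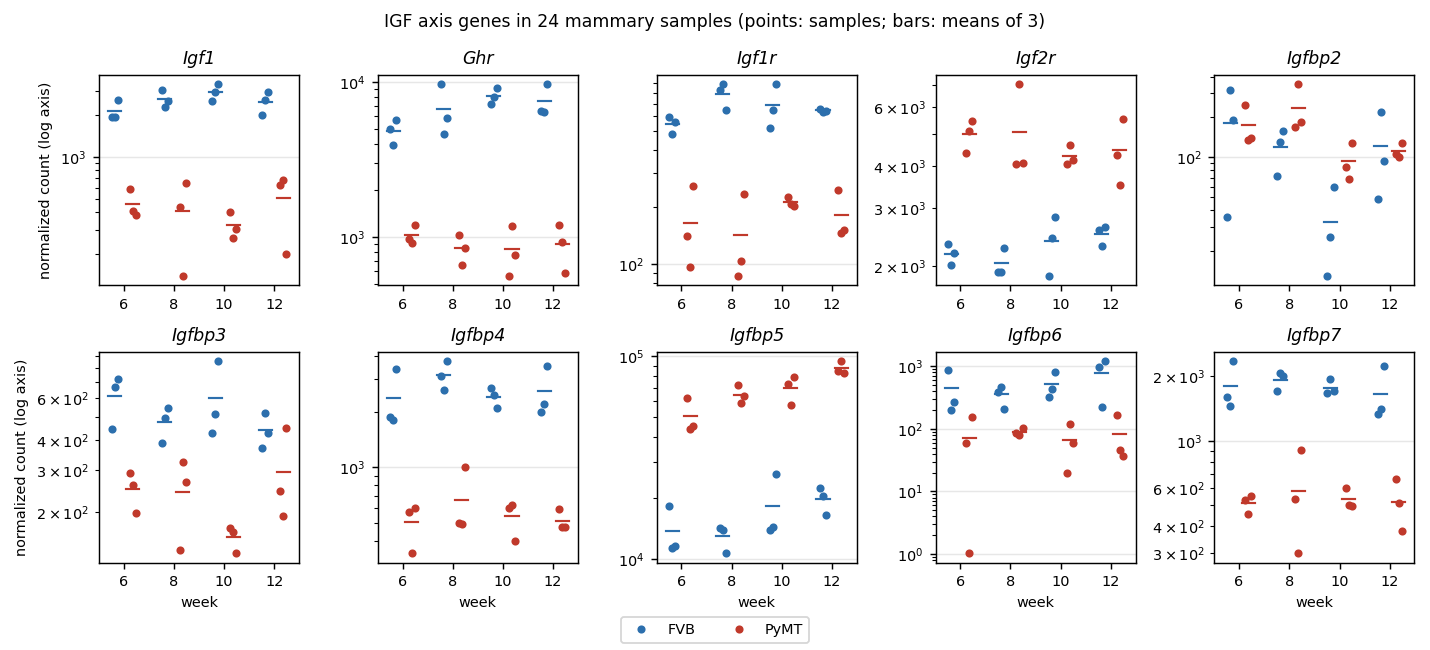
Normalized counts (log axis, y) of the 10 IGF axis genes by week (x) in FVB (blue) and PyMT (red), with a point for each sample and a bar for each mean of 3 samples. The 12 PyMT samples of Igfbp5 and Igf2r sit above all 12 FVB samples, those of Igf1, Ghr, Igf1r, Igfbp4, Igfbp6 and Igfbp7 sit below, and Igfbp2 overlaps.

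Total counts ran from 6969375 to 13516601 per sample, with medians of 8264500 in PyMT and 8472280 in FVB. Among 3799 genes of 10 to 30 median CPM (counts scaled to library depth), 4.40% had a count of 0 in the FVB sample of week 10 replicate 3 and 2.87% in the PyMT sample of week 8 replicate 2, against at most 1.92% elsewhere. Skeletal muscle markers were abundant in 7 samples, 4 of FVB and 3 of PyMT. With the 2 samples rich in counts of 0 left out, or with the 7 muscle-rich samples left out, the all-weeks count stayed at 9 (2 higher and 7 lower). In those fits 24.5% and 23.7% of all tested genes were called. Values below are normalized counts, which are counts divided by the library's size factor. Unless stated otherwise, levels are compared between genes as RPKM (reads per kilobase of exon, scaled to library depth), which was computed here from normalized counts.

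Igfbp5, which encodes a secreted binding protein that attaches to the extracellular matrix, was the most abundant of the 10 genes in both genotypes. In PyMT its normalized counts were 62640, 43760 and 45170 at week 6, 72320, 58570 and 63570 at week 8, 72800, 57300 and 79270 at week 10, and 84870, 94530 and 82390 at week 12. In FVB they were 18340, 11370 and 11560 at week 6, 14210, 13970 and 10720 at week 8, 13850, 14330 and 26430 at week 10, and 22450, 20410 and 16460 at week 12. The lowest PyMT sample thus lay above the highest FVB sample, which was the week 10 replicate 3 library rich in counts of 0 and in muscle markers. Log2 fold changes were 1.87 (SE 0.29, adjusted p = 0.00652) at week 6, 2.34 (SE 0.26, adjusted p = 0.00443) at week 8, 2.00 (SE 0.30, adjusted p = 0.00383) at week 10 and 2.19 (SE 0.20, adjusted p = 0.000355) at week 12 by edgeR. By mean normalized count Igfbp5 ranked 4 of 14918 tested genes in PyMT, where it took 0.874% of all counts, and 38 in FVB, where it took 0.163%. These ranks and shares are of counts without division by exon length, which favours genes with long exons.

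Within PyMT the mean of Igfbp5 was 50520 ± 10520 (SD, n = 3) at week 6 and 64820 ± 6960 at week 8. It was 69790 ± 11290 at week 10 and 87260 ± 6414 at week 12. The ranges of weeks 8 and 10 overlapped, and the 3 samples of week 12 lay above all samples of the earlier weeks. The log2 fold change of week 12 against week 6 was 0.80 (SE 0.26) with an adjusted p of 0.440 by edgeR, so the difference did not pass the test over all genes (unadjusted p = 0.00591). In FVB the same comparison gave 0.49 (SE 0.26, adjusted p = 1.00), and the PyMT against FVB difference itself moved by 0.305 from week 6 to week 12 (SE 0.37, adjusted p = 1.00).

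On chromosome 1 of mm9, Igfbp5 (minus strand, 72904506 to 72921458, 4 exons) and Igfbp2 (plus strand, 72871077 to 72899048, 5 exons) lie tail to tail, 5457 bp apart, with 0 protein-coding genes between them. Igfbp2 encodes a secreted binding protein found in plasma and many tissues. The normalized counts of Igfbp2 in PyMT were 244.8, 135.6 and 139.6 at week 6, 167.9, 352.5 and 182.9 at week 8, 84.5, 69.2 and 127 at week 10, and 106, 100.4 and 127.5 at week 12. In FVB they were 35.9, 318.5 and 188.5 at week 6, 71.9, 129.1 and 155.9 at week 8, 12.9, 25.1 and 59.5 at week 10, and 48.4, 219.3 and 93.0 at week 12. All PyMT samples lay above all FVB samples at weeks 8 and 10, and the genotypes overlapped at weeks 6 and 12. How many of all tested genes separate in a single week, with 3 samples per genotype, was not counted. The separation at weeks 8 and 10 is thus a description only. Across the 4 weeks together the genotypes overlapped, with 1 PyMT sample above all FVB samples.

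None of the Igfbp2 differences passed the test in edgeR. The log2 fold change was -0.07 (SE 0.66, adjusted p = 0.960) at week 6, 0.98 (SE 0.43, adjusted p = 0.187) at week 8, 1.60 (SE 0.78, adjusted p = 0.213) at week 10 and -0.06 (SE 0.52, adjusted p = 0.943) at week 12. Over all weeks it was 0.59 (SE 0.34, adjusted p = 0.153), with an interval of 1.96 standard errors from -0.08 to 1.25. That interval lay below the one of its neighbour Igfbp5, 1.83 to 2.34. Raw counts of Igfbp2 went down to 18 in FVB and 66 in PyMT, which leaves wide errors. Per length, the ratio of Igfbp5 to Igfbp2 had a median of 162 in PyMT (51.1 to 290) and of 57.6 in FVB (11.0 to 329), with overlapping ranges.

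The promoters of these neighbours are shown because the genes adjoin but differed in level, and Igfbp5 was called while Igfbp2 was not. A difference between their fold changes was not tested. Each runs from 250 bases before to 50 bases after a RefSeq start site (taken from RefSeq on GRCm38.p6), and each was found letter for letter at a single place on its strand of the same chromosome of mm9. Capitals mark the letters TATAAA of a TATA box, CCAAT of a CCAAT box, and GGGCGG of a GC box, found on either strand, and the E-box CANNTG was also searched but is not capitalised.
Igfbp5, chr1:72921390-72921689, minus strand: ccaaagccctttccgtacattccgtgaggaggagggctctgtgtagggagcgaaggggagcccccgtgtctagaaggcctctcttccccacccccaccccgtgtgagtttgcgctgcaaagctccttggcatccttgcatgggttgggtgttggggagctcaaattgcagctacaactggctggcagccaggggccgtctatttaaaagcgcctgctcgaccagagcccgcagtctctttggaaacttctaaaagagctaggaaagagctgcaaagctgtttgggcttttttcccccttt
Igfbp2, chr1:72870804-72871103, plus strand: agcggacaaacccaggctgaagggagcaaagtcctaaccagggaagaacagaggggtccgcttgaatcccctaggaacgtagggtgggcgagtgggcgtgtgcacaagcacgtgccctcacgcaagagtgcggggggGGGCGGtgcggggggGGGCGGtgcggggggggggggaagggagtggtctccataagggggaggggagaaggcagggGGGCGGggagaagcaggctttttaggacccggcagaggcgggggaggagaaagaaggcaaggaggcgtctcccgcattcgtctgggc
The Igfbp5 promoter had a GC content of 56.3% and 10 CpG, and held 0 of the 3 capitalised motifs and 1 E-box. The Igfbp2 promoter had a GC content of 67.0%, 18 CpG, 3 GC boxes and 1 E-box, and 0 of these matches overlapped a match of another motif. RefSeq lists another start site of Igfbp2, with a window at chr1:72871711-72872010 that had a GC content of 57.3%, 14 CpG, 0 GC boxes and 2 E-boxes. Over 32851 promoters of the same length from 27025 genes, 13.6% held a TATA box, 37.4% a CCAAT box, 35.7% a GC box and 72.3% an E-box, with a median GC content of 52.7% and a median of 7 CpG. A match is a description of the letters in this window and was not related to the levels here.

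Igf1 encodes the growth factor itself (chromosome 10 of mm9, 87321010 to 87399792, plus strand). Its normalized counts in FVB were 1937, 1944 and 2558 at week 6, 3045, 2291 and 2531 at week 8, 2538, 2912 and 3341 at week 10, and 1990, 2570 and 2919 at week 12. In PyMT they were 586, 407.8 and 381 at week 6, 433, 139.7 and 653 at week 8, 401, 262 and 302 at week 10, and 628, 679.5 and 201.5 at week 12. Every PyMT sample lay below every FVB sample, and the lowest PyMT value was that of week 8 replicate 2, the library rich in counts of 0. Among PyMT samples it also had the lowest marker sums of adipocytes (846) and endothelium (702), and the highest of luminal epithelium (40980). Igf1 fell by 2.23 on the log2 scale at week 6 (SE 0.23, adjusted p = 0.00171), by 2.65 at week 8 (SE 0.51, adjusted p = 0.0181), by 3.13 at week 10 (SE 0.24, adjusted p = 0.000227) and by 2.27 at week 12 (SE 0.41, adjusted p = 0.00529). The call of week 8 was lost without the FVB sample of replicate 2 (log2 fold change -2.74, adjusted p = 0.0549) and without the PyMT sample of replicate 1 (-2.69, adjusted p = 0.0779). In the fit over all weeks the fold was 5.97 (log2 fold change -2.58, SE 0.22, adjusted p = 6.56e-10 by edgeR).

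Ghr, the growth hormone receptor (chromosome 15 of mm9, 3267760 to 3533492, minus strand), had the largest difference of the 10 genes over all weeks. In FVB its normalized counts were 4972, 3901 and 5651 at week 6, 9701, 4603 and 5902 at week 8, 7240, 8069 and 9131 at week 10, and 6494, 6437 and 9702 at week 12. In PyMT the lowest, median and highest of the 12 samples were 562, 922.5 and 1203, and the highest was below the lowest of FVB. Ghr was lower by a log2 fold change of -2.24 at week 6 (SE 0.23, adjusted p = 0.00166), -2.98 at week 8 (SE 0.34, adjusted p = 0.00473), -3.24 at week 10 (SE 0.30, adjusted p = 0.000521) and -3.02 at week 12 (SE 0.30, adjusted p = 0.000438) by edgeR. The FVB means were 4841 ± 882 (SD, n = 3) at week 6 and 7544 ± 1869 at week 12, and those of PyMT were 1029 ± 152 and 903 ± 305. Neither change from week 6 to 12 passed the test (log2 fold change 0.61, SE 0.30, in FVB and -0.19, SE 0.30, in PyMT, adjusted p = 1.00 and 0.991 by edgeR).

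Igf1r, the receptor kinase (chromosome 7 of mm9, 75097713 to 75371484, plus strand), was also below FVB in all PyMT samples. Its normalized counts in FVB were 597, 486 and 560.3 at week 6, 822.5, 886 and 649.8 at week 8, 522.5, 646 and 886 at week 10, and 659, 631 and 642 at week 12. In PyMT they were 140.7, 97.0 and 259 at week 6, 86.8, 104.1 and 234 at week 8, 225, 207.5 and 202 at week 10, and 246, 146.4 and 150.6 at week 12. The highest PyMT sample, at 259, was below the lowest FVB sample, at 486. The log2 fold change was -1.72 (SE 0.38, adjusted p = 0.0229) at week 6, -2.44 (SE 0.41, adjusted p = 0.0119) at week 8, -1.64 (SE 0.25, adjusted p = 0.00434) at week 10 and -1.79 (SE 0.24, adjusted p = 0.00124) at week 12 by edgeR. The call of week 6 was lost without the FVB sample of replicate 2 (adjusted p = 0.0585), without that of replicate 3 (adjusted p = 0.0558) and without the PyMT sample of replicate 1 (adjusted p = 0.0892), at log2 fold changes of -1.80, -1.65 and -1.57.

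Igf2r (chromosome 17 of mm9, 12875272 to 12962530, minus strand) was the receptor that was higher in PyMT. Its normalized counts in PyMT were 4377, 5111 and 5457 at week 6, 4067, 7040 and 4073 at week 8, 4056, 4619 and 4158 at week 10, and 4317, 3515 and 5529 at week 12. In FVB they were 2335, 2021 and 2190.0 at week 6, 1923, 1931 and 2279 at week 8, 1876, 2437 and 2820.0 at week 10, and 2572, 2310.0 and 2631 at week 12. No PyMT sample overlapped with FVB, and the sample at 7040 was again week 8 replicate 2. Igf2r was called at week 6 (log2 fold change 1.18, SE 0.19, adjusted p = 0.00733) and week 8 (1.31, SE 0.25, adjusted p = 0.0181). At weeks 10 and 12 the log2 fold changes were 0.90 (SE 0.20, adjusted p = 0.0214) and 0.88 (SE 0.21, adjusted p = 0.0157), which passed the p threshold of edgeR but not the fold of 2. Over all weeks Igf2r was 2.08-fold higher (log2 fold change 1.06, SE 0.10, adjusted p = 8.32e-09 by edgeR). The call of week 8 was lost without the FVB sample of replicate 2 (log2 fold change 1.27, adjusted p = 0.0744), and a call was gained without the FVB sample of week 10 replicate 3 (1.03, adjusted p = 0.00338) and without the PyMT sample of week 12 replicate 2 (1.02, adjusted p = 0.0217). The antisense noncoding gene Airn overlaps Igf2r but shares 0 bp of exon with it.

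**Figure D2:**
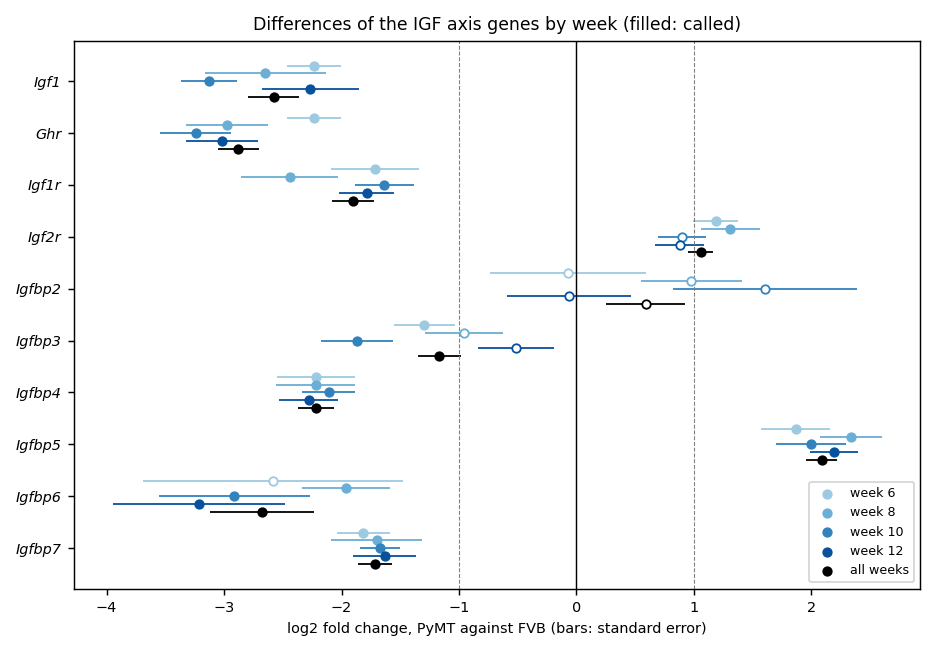
Log2 fold change of PyMT against FVB (x) for the 10 IGF axis genes (y), with a point for each week (blue, light to dark) and for the fit over all weeks (black), bars of 1 standard error and filled points for genes called. Igf1, Ghr, Igf1r, Igfbp4, Igfbp6 and Igfbp7 lie left of -1 at all weeks, Igfbp5 lies near 2, and Igf2r lies close to 1.

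Igfbp4, a binding protein known mainly to hinder IGF action (chromosome 11 of mm9, 98902558 to 98913969, plus strand), ran from 1813 to 3762 normalized counts in FVB, with a median of 2548, and from 344 to 1008 in PyMT, with a median of 539. The highest PyMT sample, of week 8 replicate 3, was below the lowest FVB sample. Its log2 fold change moved little between the weeks, from -2.11 (SE 0.22, adjusted p = 0.000915) at week 10 to -2.28 (SE 0.25, adjusted p = 0.000565) at week 12, and it was -2.22 over all weeks (SE 0.15, adjusted p = 2.47e-11 by edgeR). Igfbp7, a secreted protein of vessel walls and matrix with low affinity for IGFs (chromosome 5 of mm9, 77778265 to 77837070, minus strand), was also lower in every PyMT sample. It ran from 1339 to 2353 normalized counts in FVB (median 1706) and from 300.0 to 907 in PyMT (median 522), without overlap. Its log2 fold change was -1.82 (SE 0.23, adjusted p = 0.00289) at week 6, -1.70 (SE 0.39, adjusted p = 0.0304) at week 8, -1.67 (SE 0.17, adjusted p = 0.000842) at week 10 and -1.63 (SE 0.27, adjusted p = 0.00336) at week 12 by edgeR. The week 8 call of Igfbp7 was lost without the FVB samples of replicate 2 (log2 fold change -1.64, adjusted p = 0.0939) or replicate 3 (-1.65, adjusted p = 0.0775) and without the PyMT sample of replicate 1 (-1.65, adjusted p = 0.117). Igfbp7 shares 85 bp of exon with Polr2b (and AC141469.5, annotated at the same place) on the opposite strand, and since the strand setting of the counting was not given, reads of that stretch could belong to either gene.

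The promoters of the ligand, Igf1, and of Igfbp4, a binding protein called lower at every week, are printed with the same capitals. The Igf1 window lies inside the gene as annotated in GENCODE M1, downstream of its start at 87321010. It thus describes an internal RefSeq start site, and a window at the annotated start of the gene was not searched.
Igf1, chr10:87323606-87323905, plus strand: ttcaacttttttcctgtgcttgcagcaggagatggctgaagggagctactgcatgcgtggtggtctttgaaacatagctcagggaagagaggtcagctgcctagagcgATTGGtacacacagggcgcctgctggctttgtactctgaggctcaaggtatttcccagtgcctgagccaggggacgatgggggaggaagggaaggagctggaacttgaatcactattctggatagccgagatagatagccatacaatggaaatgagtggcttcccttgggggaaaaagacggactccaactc
Igfbp4, chr11:98902308-98902607, plus strand: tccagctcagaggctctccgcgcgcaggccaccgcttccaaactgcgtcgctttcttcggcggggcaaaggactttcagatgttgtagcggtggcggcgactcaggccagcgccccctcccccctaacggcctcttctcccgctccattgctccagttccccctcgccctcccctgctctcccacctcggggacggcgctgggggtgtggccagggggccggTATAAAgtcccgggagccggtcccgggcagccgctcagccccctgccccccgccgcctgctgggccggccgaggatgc
The Igf1 window held 1 CCAAT box, on the opposite strand, and 1 E-box, at a GC content of 52.3% with 6 CpG. That of Igfbp4 held 1 TATA box, which began 28 bases before the start site, and 1 E-box, at a GC content of 71.3% with 27 CpG.

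Igfbp3, the main IGF carrier of plasma (chromosome 11 of mm9, 7106089 to 7113926, minus strand), was lower in PyMT by a smaller margin. In FVB its normalized counts were 445.0, 668 and 719.8 at week 6, 389, 495 and 544 at week 8, 429, 515 and 851 at week 10, and 371, 518 and 426.5 at week 12. In PyMT they were 293, 261 and 198 at week 6, 139.3, 324 and 268 at week 8, 171.7, 165.6 and 135.6 at week 10, and 246, 193.4 and 447 at week 12. Of the 12 PyMT samples, 11 lay below every FVB sample, and the exception was week 12 replicate 3, at 447. Igfbp3 was called at week 6 (log2 fold change -1.29, SE 0.26, adjusted p = 0.0166), at week 10 (-1.87, SE 0.31, adjusted p = 0.00572) and over all weeks (-1.17, SE 0.18, adjusted p = 1.10e-05), but not at week 8 (-0.96, SE 0.33, adjusted p = 0.107) or week 12 (-0.52, SE 0.33, adjusted p = 0.279). The difference between weeks 8 and 10 in this contrast was itself -0.93 (SE 0.46, adjusted p = 1.00 by edgeR). At week 6 the call was lost without the FVB sample of replicate 2 or 3 or the PyMT sample of replicate 1 or 3, at log2 fold changes of -1.22, -1.12, -1.38 and -1.11 and adjusted p-values of 0.0634, 0.0717, 0.0526 and 0.0764.

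Igfbp6, a binding protein that prefers IGF2 (chromosome 15 of mm9, 101974793 to 101979942, plus strand), varied widely between samples of a group. Its normalized counts in FVB were 870.4, 197.5 and 266 at week 6, 386, 474.5 and 209 at week 8, 326, 441 and 798 at week 10, and 958, 225.6 and 1200.0 at week 12. In PyMT they were 58.8, 1.04 and 157 at week 6, 86.8, 80.6 and 103.5 at week 8, 19.6, 121.6 and 60.6 at week 10, and 166.5, 45.9 and 37.0 at week 12. The genotypes did not overlap at any week. The PyMT sample of week 6 replicate 2 had a raw count of 1, and week 6 was the week without a call (log2 fold change -2.58, SE 1.11, adjusted p = 0.180). Igfbp6 was called at week 8 (-1.96, SE 0.37, adjusted p = 0.0172), week 10 (-2.91, SE 0.64, adjusted p = 0.0189), week 12 (-3.22, SE 0.73, adjusted p = 0.0135) and over all weeks (-2.68, SE 0.44, adjusted p = 2.04e-05) by edgeR. The week 8 call was lost in the fit of all 24 samples in 8 groups (-1.96, adjusted p = 0.138). Each of the 3 weekly calls was also lost without 1 sample. These were the FVB sample of week 8 replicate 2 (-1.70, adjusted p = 0.0711) or the PyMT sample of week 8 replicate 1 (-1.94, adjusted p = 0.0763), the PyMT sample of week 10 replicate 3 (-2.87, adjusted p = 0.0730), and the PyMT samples of week 12 replicate 2 (-2.93, adjusted p = 0.0556) or 3 (-2.87, adjusted p = 0.0575).

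In all, 8 of the 10 genes had no overlap between the 12 PyMT and the 12 FVB samples, 2 with PyMT above and 6 with PyMT below, where 4.67% and 7.22% of all tested genes did so in these directions. Changes with time were smaller. Between weeks 6 and 12, 0 of the 10 genes were called in PyMT and 0 in FVB by edgeR, with 1 (Igfbp5) and 0 at an unadjusted p under 0.05, and DESeq2 also called 0 in each. Over all tested genes 0.0% were called in both comparisons (1004 and 625 genes at an unadjusted p under 0.05), and DESeq2 called 0.65% and 0.127%. The PyMT against FVB difference itself changed past the threshold for 0 of the 10 genes from week 6 to 12 and for 0 from week 8 to 10, with 0 at an unadjusted p under 0.05 in either test and 0 by DESeq2. Of all tested genes, 0.0% and 0.0067% did so (691 and 533 genes at an unadjusted p under 0.05). The largest of these changes among the 10 genes were those of Ghr from week 6 to 12 (-0.79, SE 0.43) and Igfbp6 from week 8 to 10 (-0.96, SE 1.24). In simulated data the test of a changed difference from week 6 to 12 recovered 29.2% of genes given a 4-fold change. Counts of 0 in such tests therefore do not show that the genes were stable.

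Levels per length placed the genes in a different order in the genotypes. In FVB, Igfbp5 had a mean of 303 ± 91.0 RPKM (SD, n = 12), followed by Igfbp7 at 166 ± 30.6, Igfbp4 at 126 ± 32.5, Ghr at 84.8 ± 24.6 and Igfbp6 at 53.6 ± 34.4. Igf1 at 28.9 ± 5.15, Igf2r at 27.2 ± 3.63, Igfbp3 at 19.1 ± 5.24, Igf1r at 16.8 ± 3.33 and Igfbp2 at 6.90 ± 5.64 came last. From Igfbp7 down to Igf1r, neighbours in this order overlapped within their spread (mean ± SD) and could not be ranked. In PyMT, Igfbp5 had a mean of 1277 ± 295 RPKM, and the next, Igf2r at 56.0 ± 11.4 and Igfbp7 at 49.9 ± 13.9, were within their spread of each other. Igfbp4 followed at 26.6 ± 7.91 RPKM. Ghr at 11.2 ± 2.84, Igfbp2 at 9.34 ± 4.79, Igfbp3 at 8.52 ± 3.24, Igfbp6 at 7.92 ± 5.24, Igf1 at 4.80 ± 2.05 and Igf1r at 4.40 ± 1.54 came last. Neighbours among these also overlapped within their spread and could not be ranked. Lengths were those of the GENCODE M1 exons, and the gene models used for the counting were not given in the sources used here.

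The make-up of the binding protein transcripts differed between PyMT and FVB. Of the summed RPKM of Igfbp2 to Igfbp7, Igfbp5 made up 92.3% ± 2.31 (SD, n = 12) in PyMT and 44.5% ± 8.69 in FVB, and the lowest PyMT sample, at 87.9%, exceeded the highest FVB sample, at 57.0%. Igfbp7 made up 3.75% ± 1.22 in PyMT and 25.0% ± 5.15 in FVB, and Igfbp4 2.01% ± 0.709 and 18.9% ± 5.30. The shares of Igfbp6 were 0.603% and 7.56%, those of Igfbp3 0.647% and 2.89%, and those of Igfbp2 0.724% and 1.10%. The sum itself was 1379 ± 294 RPKM in PyMT and 675 ± 102 in FVB, and the lowest PyMT sample (897) was above the highest FVB sample (869). Without Igfbp5 the order was the opposite, 102 ± 23.1 RPKM in PyMT and 372 ± 65.8 in FVB, again without overlap (highest PyMT sample 163.5, lowest FVB sample 285). Shares of a sum are not independent of each other, so a larger share of Igfbp5 lowers the others. Within PyMT the mean share of Igfbp5 was 90.5% ± 1.83 (SD, n = 3) at week 6 and 91.1% ± 2.82 at week 8. It was 93.2% ± 1.55 at week 10 and 94.3% ± 1.26 at week 12, with overlapping ranges between neighbouring weeks.

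**Figure D3:**
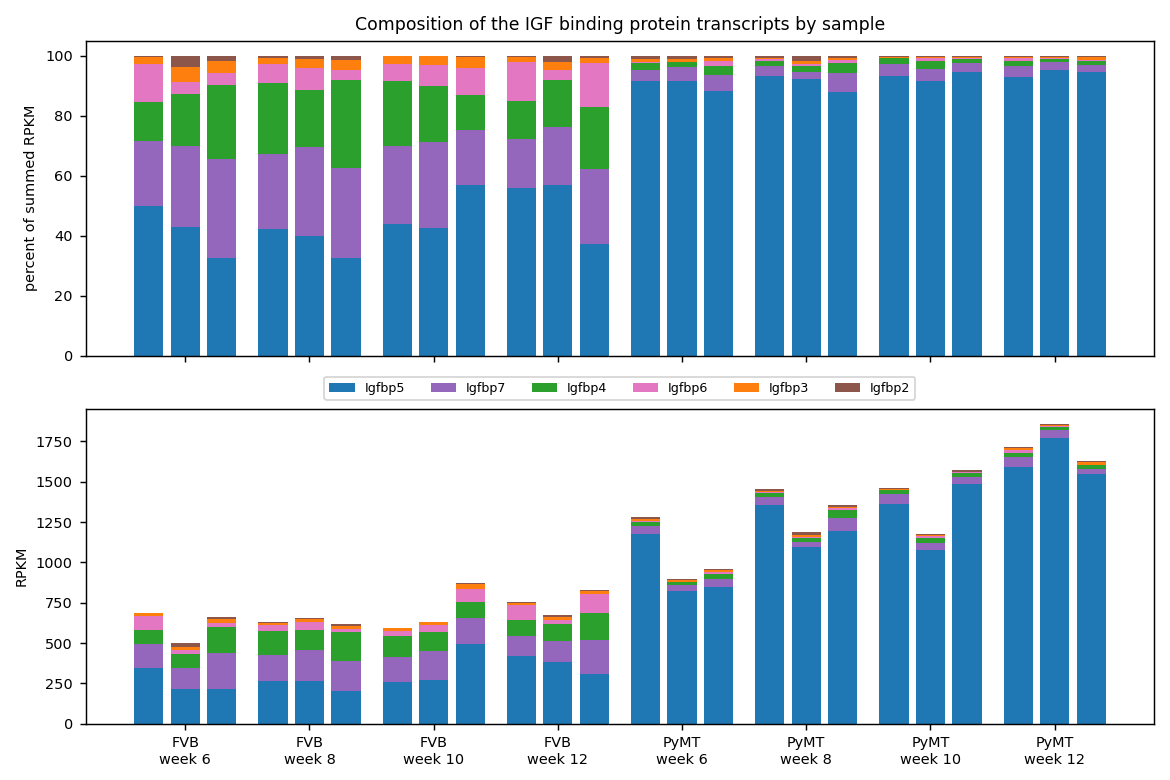
Percent of the summed RPKM of Igfbp2 to Igfbp7 taken by each gene (top) and their RPKM (bottom) in each of the 24 samples (x, grouped by genotype and week). Igfbp5 (blue) fills 87.9% to 95.3% of the PyMT bars and 32.6% to 57.0% of the FVB bars.

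Other genes of the growth hormone, IGF and insulin receptor pathway were taken from a list of 37, of which 30 were tested. Growth hormone (Gh) and Igfbp1 had a count of 0 in all samples, and Igfbpl1, Insrr, Irs4, Igf2bp1 and Igf2bp3 did not pass the filter on low counts. Over all weeks 1 was called higher and 11 lower, with a median log2 fold change of -0.76. In that fit 8.51% of all tested genes were called higher and 17.2% lower. At week 6, 1 was higher and 6 were lower, at week 8 none was higher and 6 were lower, at week 10 none was higher and 7 were lower, and at week 12, 1 was higher and 10 were lower, with median log2 fold changes of -1.02, -0.63, -0.70 and -0.46. Of all tested genes, 3.58% were called higher and 6.46% lower at week 6, and 3.57% and 6.37% at week 8. Those shares were 4.83% and 9.09% at week 10, and 7.75% and 13.0% at week 12. Of the 31 weekly calls of pathway genes, 15 held with each sample left out in turn and 13 held in all 15 alternatives. These 13 were the calls of Htra1 at each week, of Grb10 at week 6, of Irs3, Stc2 and Akt2 at weeks 10 and 12, and of Igf2 and Igf2bp2 at week 12. The pathway counts moved more with the processing and with single samples than those of the 10 genes. The week 6 count of 7 was 2 without the FVB sample of replicate 2 or the PyMT sample of replicate 1, and 4 without the FVB sample of replicate 1 or the PyMT sample of replicate 3. In those fits, in the same order, 6.76%, 5.74%, 7.86% and 6.48% of all tested genes were called. The week 8 count of 6 was 1 without the PyMT sample of replicate 1, 2 without the FVB sample of replicate 2, and 3 without the FVB or the PyMT sample of replicate 3, and the week 10 count of 7 was 4 without the PyMT sample of replicate 3. The shares of all tested genes called were 3.44%, 4.59%, 7.19%, 6.07% and 9.18%, in the same order.

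Among the ligands and their carriers, Igf2, the second IGF, was low in both genotypes. Its normalized counts in FVB ran from 32.6 to 163, with a median of 91.3, and those in PyMT from 0 to 21.0, with a median of 2.26 and raw counts of 0, 0 and 2 at week 12. No PyMT sample overlapped with FVB, and Igf2 was called at weeks 6 and 12 (adjusted p = 0.0428 and 0.00120 by edgeR) and over all weeks, but fitted folds against counts this close to 0 are not bounds. Igfals, the acid-labile subunit that joins IGF1 and Igfbp3 in a serum complex, was the gene called higher. It had 476 ± 152 normalized counts in PyMT (SD, n = 12) and 186 ± 72.1 in FVB (log2 fold change 1.36, SE 0.24, adjusted p = 4.96e-05 by edgeR), and 10 of 12 PyMT samples lay above all FVB samples. Igfals was called at weeks 6 and 12, but not at week 8 (adjusted p = 0.129 by edgeR) or week 10 (adjusted p = 0.191). The week 6 call was lost without the FVB sample of replicate 2 or the PyMT sample of replicate 1.

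Of 5 tested proteases and protease inhibitors that set the release of IGFs from binding proteins, 4 were called lower over all weeks. In that fit 17.2% of all tested genes were called lower. Stc1 was at a log2 fold change of -0.85 without a call. Htra1, a serine protease that can cleave Igfbp5, had a log2 fold change of -2.93 (SE 0.24, adjusted p = 3.41e-10 by edgeR) and was called at every week. Pappa, a metalloprotease that cleaves Igfbp4, ran from 37.6 to 472 normalized counts in FVB and from 0 to 39.1 in PyMT. Pappa was also called at every week, but unlike those of Htra1, which held in all 15 alternatives of each week, its calls were lost with 3, 3, 5 and 2 of the 6 samples left out in turn at weeks 6, 8, 10 and 12. Its relative Pappa2, which cleaves Igfbp3 and Igfbp5, ran from 0 to 222 in FVB and from 0 to 20.9 in PyMT, with a call over all weeks (adjusted p = 0.0408 by edgeR) and overlapping groups. Pappa2 was not called at any single week. Stc2, a secreted inhibitor of these metalloproteases, was lower by a log2 fold change of -2.66 (SE 0.33, adjusted p = 4.19e-07 by edgeR), without overlap over the 12 samples of each genotype. Stc2 was called at weeks 10 and 12, but not at week 6 (adjusted p = 0.0669 by edgeR) or week 8 (adjusted p = 0.0863). Igf2bp2, an RNA-binding protein named for Igf2 mRNA, ran from 32.6 to 170.1 in FVB and from 0 to 27.2 in PyMT, and was called at week 12 and over all weeks.

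Downstream of the receptors, Insr, the insulin receptor, had 2378 ± 516 normalized counts in FVB and 1209 ± 186 in PyMT. All 12 PyMT samples of Insr lay below all FVB samples, and the log2 fold change was -0.96 over all weeks (SE 0.11, adjusted p = 1.40e-07 by edgeR), short of the fold of 2, and -1.25 at week 12 (SE 0.17, adjusted p = 0.00158), where it was called. Irs1, the docking protein of both receptors, was lower over all weeks by -1.11 (SE 0.13, adjusted p = 2.36e-07 by edgeR) and was called at weeks 6, 8 and 12, where the call was lost with 6, 4 and 2 of the 6 samples left out in turn. Irs3, a substrate of rodent adipocytes, ran from 74.8 to 369 normalized counts in FVB and from 0 to 41.7 in PyMT and was called at weeks 8, 10 and 12. Irs2 was called at week 8 only (log2 fold change -1.35, SE 0.35, adjusted p = 0.0482 by edgeR), and its raw count was 1 in the PyMT sample of week 6 replicate 2, where that of Igfbp6 was also 1. The week 8 call of Irs2 was lost with 5 of the 6 samples left out in turn. The adaptors Grb10 (-1.23, SE 0.17) and Grb14 (-1.39, SE 0.25), which dampen signaling of these receptors, and the kinase Akt2 (-1.46, SE 0.14) were also called lower over all weeks. Not all downstream genes were lower. Pik3r1 was higher over all weeks (0.69, SE 0.09, adjusted p = 3.65e-07 by edgeR), with all 12 PyMT samples above all FVB samples. Akt1 (0.35, adjusted p = 0.0013) and Foxo3 (0.32, adjusted p = 0.0313) were also higher by edgeR. Shc1 (-0.31), Jak2 (-0.44), Pik3ca (-0.39) and Foxo1 (-0.44) were lower at adjusted p-values below 0.05. These genes were all short of the fold of 2. Socs1, an inhibitor of cytokine receptors including Ghr, was called at week 12 only, at 0 to 29.6 normalized counts in PyMT and 0 to 66.8 in FVB over all weeks.

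Cell type markers also differed between the genotypes. Of 8 adipocyte markers (among them Adipoq, Lep and Plin1), 8 were called lower over all weeks at a median of -4.01 in log2 fold change, and their summed normalized counts ran from 51390 to 144800 in FVB and from 846 to 17300 in PyMT. All 8 fibroblast markers (among them Pdgfra, Dcn and Col1a1) were lower, with a median of -1.98 and sums of 51850 to 188800 in FVB and 21640 to 45360 in PyMT. All 6 endothelial markers (among them Pecam1 and Kdr) were lower, with a median of -2.39 and sums of 5310 to 9240 in FVB and 702 to 2123 in PyMT. Of 6 myoepithelial markers 4 were lower, with a median of -2.27 and sums of 4302 to 15010 in FVB and 1039 to 5415 in PyMT, while Krt5 and Krt14 were at 0.00 and 0.22.

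Of 8 luminal epithelial markers, 6 were higher (among them Krt8, Epcam and Elf5), with a median of 1.61 and sums of 4338 to 19740 in FVB and 21660 to 40980 in PyMT, so epithelial markers were present in all samples. The other two were Cldn4, at 0.93 (adjusted p = 0.0087 by edgeR), and Krt19, at -0.59 (adjusted p = 0.0388), both short of the fold of 2, and Krt19 was at -1.18 in week 12 (adjusted p = 0.0725). Of 5 tested macrophage markers 1 was lower (Cd163, log2 fold change -2.16), with a median of -0.67 and sums of 1938 to 4804 in FVB and 1551 to 3333 in PyMT. The 7 lymphocyte markers did not pass the filter on low counts, at sums of 0 to 97.1 in FVB and 0 to 45.1 in PyMT. Of 10 skeletal muscle markers 9 were lower and Mb, at -2.07, was not called, with a median of -4.66 and sums of 127 to 556700 in FVB and 75.5 to 31660 in PyMT. The median of the 7 IGF axis genes called lower was not compared with these lists by a test, and the part of tissue make-up in the differences of Igf1, Ghr, Igf1r, the binding proteins and Igf2r was not tested.

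**Figure D4:**
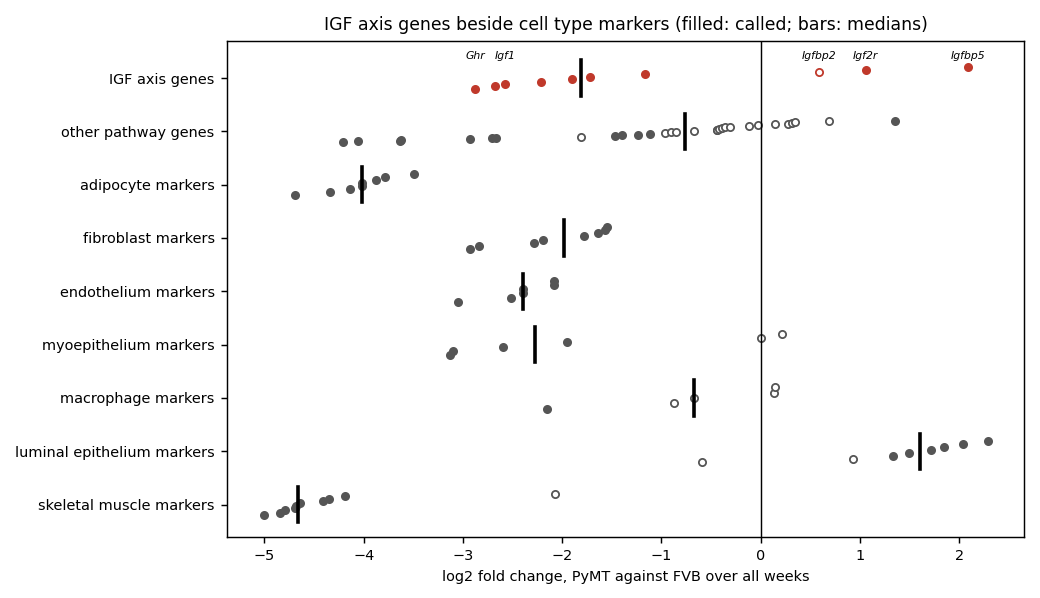
Log2 fold change of PyMT against FVB over all weeks (x) for each tested gene of the IGF axis, of the wider pathway and of 7 marker lists (y), with a point for each gene, filled where called, and a bar for each median. The median of the IGF axis genes is -1.81, between the medians of the adipocyte (-4.01) and the luminal epithelial markers (1.61).

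The genes whose pattern was most like each member were named by the Pearson correlation of log2 normalized counts over the 24 samples, as a description, since all points share the split between genotypes and come from the same libraries. For Ghr these were Gsn (0.989), Cav1 (0.986) and Agmo (0.986). For Igf1 they were Rgl1 (0.980), Nr2f2 (0.974) and Msrb3 (0.972), and for Igfbp7 they were Hspg2 (0.981), Lamc1 (0.980) and Nid1 (0.980), which encode perlecan, a laminin chain and nidogen of basement membranes. Igfbp4 was closest to Plxnd1 (0.978), Lamc1 (0.976) and Kirrel (0.973), Igf1r to Dnm1 (0.948), Loxl1 (0.944) and Tbx3 (0.941), and Igfbp6 to Nbl1 (0.927) and Mtap1a (0.923). After each group's mean was subtracted, the correlations of these pairs ran from 0.647 to 0.914.

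The other members are described the same way. Igfbp5 was closest to Plcg2 (0.957), Surf4 (0.954) and Npnt (0.954), and with the group means subtracted these correlations were 0.429, 0.102 and 0.547. Igf2r was closest to Apol7a (0.956), Hyou1 (0.947) and Calm2 (0.946), at 0.642, 0.704 and 0.634 after subtraction. Igfbp3 was closest to Trim35 (0.870), Ankrd11 (0.852) and Ccrn4l (0.850), at 0.286, 0.622 and 0.464 after subtraction. Igfbp2, the gene with no call, was closest to Lsm5 (0.781), Tonsl (0.769) and Kif18b (0.734), at 0.533, 0.789 and 0.464. Among the members themselves, Igfbp4 and Igfbp7 had the highest correlation (0.969, and 0.750 with group means subtracted), followed by Igf1 and Igfbp7 (0.965 and 0.800). Igf1 and Igf2r had the lowest (-0.936, and -0.725 with group means subtracted). The lowest Igf1 and the highest Igf2r value of PyMT were both of week 8 replicate 2, and the correlation without it was not computed.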

How the data were processed

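Directional libraries were made from total RNA after depletion of ribosomal RNA, and the authors trimmed adapters and used GSNAP for alignment to mm9. What they deposited are raw HTSeq counts of 37991 Ensembl genes in 24 samples, not normalized. The annotation and the strand setting used for counting are not given in the sources used here, so names, positions and exon lengths were taken from GENCODE M1.

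The fits used edgeR 4.0.16 (quasi-likelihood F-test, TMM, Benjamini-Hochberg) in R 4.3.3 on the 14918 genes with a CPM of 1 or more in at least 12 samples, with the 6 samples of a week or all 24. Other fits used DESeq2 1.42.0 and limma 3.58.1; tables and plots used Python 3.11.15, pandas 2.3.3, NumPy 2.4.6 and matplotlib 3.10.9. The standard error is the log2 fold change divided by the root of F. Size factors of DESeq2 gave the normalized counts, to which 1 was added before log2 for correlations. RPKM is the normalized count per kilobase of exon, scaled by the mean library total. Replicates were compared for copies by chi-square, which came to 20.4 to 238 a gene over 24 pairs, so none were merged. P-values measure the spread between mice, 3 in each group.

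The members and lists were chosen with earlier results of these data known. Named genes are the 10 members, pathway genes called at any week or over all weeks, Igf2, Insr and Irs1, and the 3 tested genes most correlated with each member, of which 1 is not reported here. Beyond this rule, Stc1, the pathway genes that were not tested, and examples of the marker lists were named after their values were seen. So were Pik3r1, Akt1, Foxo3, Shc1, Jak2, Pik3ca and Foxo1. Promoters were found for 10 of 10 members. Alternatives were DESeq2, voom with sample weights, glmTreat, 1 fit of 24 samples, a replicate block, RLE size factors, library size only, other filters and samples left out. Leaving out the 7 muscle-rich samples (marker sum above 10000 normalized counts) was chosen after seeing the data. The fits were tested on simulated data with 4-fold changes. Recovered were 82.2% of the changed genes over all weeks, 40.5% at week 6 and 29.2% for the changed difference from week 6 to 12.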

Additional observations from a re-analysis of the deposited data

How the results depend on the processing

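Of 710 values of the member fold changes under other settings, 657 kept their direction and their side of the threshold, 36 lost the call (13 of them in the test against a fold change of 2), 6 gained it and 11 turned direction, all 11 of Igfbp2. Over all weeks 8 or 9 members were called in all 11 settings: voom left out Igf2r (0.98) and library size alone left out Igfbp3 (-0.88). Of all tested genes, library size alone called 27.2% over all weeks and DESeq2 27.7%. Library size alone moved the median of all genes to 0.19, 0.20, 0.30 and 0.32 at weeks 6, 8, 10 and 12 and to 0.26 over all weeks, with Igfbp3 not called at week 6 (-1.07) and Igf2r called at weeks 10 (1.23) and 12 (1.198). By voom Igfbp3 was called at week 8 (-1.34) and Igf2r at week 10 (1.00). Tested against a fold change of 2 (glmTreat), 4, 3 and 5 members were called at weeks 6, 8 and 10, and 2, 2, 4 and 7 pathway genes at weeks 6, 8, 10 and 12. Of all tested genes, glmTreat called 2.51%, 2.31%, 5.84% and 9.14% at these 4 weeks. DESeq2 called 11 and 10 pathway genes at weeks 6 and 8, and voom 4 and 10. The shares of all tested genes called at weeks 6 and 8 were 14.9% and 16.7% by DESeq2 and 11.2% and 15.9% by voom. With single samples left out, 4 to 8 members were called at week 8, and 2 to 7, 1 to 5 and 4 to 6 pathway genes at weeks 6, 8 and 10. The log2 fold change of Igfbp2 was 0.0297 at week 6 and 0.37 at week 12 by voom, 0.0921 and 0.18 with library size alone, and -0.53 to 0.63 and -0.44 to 0.66 with single samples left out. The cause of these shifts was not tested. Without division by length, Igfbp5 took 97.6% of the binding protein counts in PyMT and 73.2% in FVB.

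With a replicate block 7, 8, 8 and 7 members were called at weeks 6, 8, 10 and 12 and 9 over all weeks, and Igfbp2 was at 0.22 at week 6 and 0.20 at week 12. The block fits called 7.92%, 9.14%, 13.5% and 18.7% of all tested genes at weeks 6, 8, 10 and 12, and 25.7% over all weeks. Of the members, Igfbp3 lost its call at week 6 (-1.28). The pathway calls lost were 7, those of Igf2, Igfals and Irs1 at week 6, Irs2 at week 8, Pappa at weeks 10 and 12 and Socs1 at week 12. Deviations of same-numbered samples correlated at -0.025 to 0.177, over 0.1 in 4 of 12 pairs, and 6 of 12 PyMT samples correlated best with their own number, all 3 of week 10 among them, while 0 of 24 pairs of different numbers were over 0.1 (highest 0.091). Since not every pair was over 0.1 and no label ties equal numbers together, the main fits have no block. That rule is not a test of pairing, and a factor shared by equal numbers was not tested. The paper reports a slight contribution of litter to a principal component, but the litter of each sample was not given in the sources used here. With 3 samples per group and raw counts down to 18 for Igfbp2 and 1 for Igfbp6, the errors of these genes are wide within a week.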
